A study of Mus musculus with 32 samples.

Results

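Transcripts of the LIF receptor and STAT3 pathway were followed in mouse embryonic stem (mES) cells driven towards primitive endoderm (PrE) by GATA6. The 9 genes were taken by symbol: the receptor chains *Lifr*, *Il6st* and *Il6ra*, the kinases *Jak1* and *Jak2*, the transcription factor *Stat3*, the inhibitors *Socs2* and *Socs3*, and *Pim1*. The table lists 54233 genes, of which 15227 had enough reads to be tested, and all 9 were among the latter. RNA was sequenced at 8 time points (0, 2, 4, 8, 16, 24, 48 and 96 h) with 4 replicates each, 32 samples in all. The cells were the KH2 line on a C57BL/6 background, and every sample, 0 h included, carried the TRE:GATA6-DSRed2 transgene, in which a doxycycline (Dox) responsive promoter drives GATA6 and a red reporter. At 0 h the cells were in 2i medium, which holds the MEK inhibitor PD0325901 and the GSK3 inhibitor CHIR, without Dox. The induced samples were in serum medium with Dox at 1 µg/ml for up to 12 h, and samples taken later than that had gone on in serum medium without Dox. Both media held LIF at the same 200000 units/ml. Medium and Dox change together between 0 h and 2 h, so their effects cannot be told apart in any comparison with 0 h.

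LIF is the cytokine that keeps mES cells self-renewing. It joins LIFR to gp130, the shared signalling chain encoded by *Il6st*, and the JAK kinases bound to both chains then phosphorylate STAT3, which enters the nucleus and turns on its targets. SOCS3 is one of those targets and shuts the receptor down in a feedback loop, and IL-6 reaches the same gp130 chain through its own receptor, *Il6ra*.

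Promoters were searched for the letters that STAT dimers read, TTCNNNGAA, and for GATAA, the core that GATA factors read, on both strands. The windows run from 250 bases before to 50 bases after a RefSeq transcription start on GRCm38.p6, and 10 windows were found for 8 of the 9 genes. Of these 10 windows, 1 held TTCNNNGAA, and among all 32851 promoters the share was 8.30%. This was the *Socs3* window, chr11:117969317-117969616 on the minus strand, shown because *Socs3* is the textbook STAT3 feedback target, with the match TTCTTAGAA in capitals.

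Socs3: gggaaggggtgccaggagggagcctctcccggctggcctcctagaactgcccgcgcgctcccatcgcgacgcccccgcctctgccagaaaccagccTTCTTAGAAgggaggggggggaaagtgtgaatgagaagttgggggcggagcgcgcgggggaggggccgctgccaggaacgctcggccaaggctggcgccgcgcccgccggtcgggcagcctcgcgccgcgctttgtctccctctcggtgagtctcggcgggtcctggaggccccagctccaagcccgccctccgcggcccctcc

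The match starts 154 bases before the transcription start. GATAA was in 3 of the 10 windows, which belong to 2 of the 8 genes, close to the 25.4% of all promoters. These were both *Lifr* windows and the *Il6ra* window, shown because the transgene encodes a GATA factor. In each the motif lies on the opposite strand, so it is read as TTATC in the capitals of the *Lifr* windows chr15:7129322-7129621 and chr15:7140292-7140591 (plus strand) and the *Il6ra* window chr3:89913147-89913446 (minus strand).

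Lifr, first window: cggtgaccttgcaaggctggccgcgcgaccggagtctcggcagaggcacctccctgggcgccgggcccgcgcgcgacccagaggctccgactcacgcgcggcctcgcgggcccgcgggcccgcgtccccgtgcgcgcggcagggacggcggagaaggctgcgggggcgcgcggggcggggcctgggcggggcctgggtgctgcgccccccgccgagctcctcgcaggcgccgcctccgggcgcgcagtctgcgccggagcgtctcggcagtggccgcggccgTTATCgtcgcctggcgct

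Lifr, second window: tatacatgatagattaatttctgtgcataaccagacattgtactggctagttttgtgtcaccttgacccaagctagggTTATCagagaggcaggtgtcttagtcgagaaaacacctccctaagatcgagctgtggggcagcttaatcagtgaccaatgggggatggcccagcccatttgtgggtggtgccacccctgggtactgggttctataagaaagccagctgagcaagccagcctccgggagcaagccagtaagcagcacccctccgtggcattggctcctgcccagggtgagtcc

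Il6ra: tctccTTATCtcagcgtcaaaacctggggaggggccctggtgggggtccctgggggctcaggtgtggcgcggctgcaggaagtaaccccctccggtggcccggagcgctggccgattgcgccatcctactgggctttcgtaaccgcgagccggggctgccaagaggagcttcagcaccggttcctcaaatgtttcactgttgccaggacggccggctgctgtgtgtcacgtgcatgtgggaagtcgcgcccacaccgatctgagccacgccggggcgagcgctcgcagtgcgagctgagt

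The motif starts 33 bases after the transcription start in the first *Lifr* window, 172 bases before it in the second and 245 bases before it in *Il6ra*. A match describes letters in a window and is not a measured binding site.

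Libraries held between 3190108 and 12301732 reads assigned to genes (median 8870662.5). Replicates 1 and 2 formed one set and replicates 3 and 4 another: pairs of samples of a time point differed by a median chi-square per degree of freedom of 1.57 within a set and 10.9 between sets. The labels do not explain the sets, and values within each set are given where they differ most. The labels do not say that replicates were separate cultures, while the study's reporting form describes its replicates in general as independent, so p-values measure the spread between these samples. Limma takes that spread for each gene over all 32 samples, not only those compared. It treats the 4 replicates of a time point as independent despite the sets. The transgene row held no read at 0 h and 510 to 740 normalized counts at 2 h. Summed over 5 pluripotency markers, the level went from 25889 to 27083 at 0 h to 2305 to 3003 at 96 h, and over 7 endoderm markers from 46.9 to 79.3 at 0 h to 31209 to 35998 at 96 h. The 5 fibroblast markers summed to between 2.1 and 34.0 in every sample, with 2 of them without a read at 96 h, and the 4 trophectoderm markers to between 104 and 399. The part these markers play in the results below was not tested.

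Of the receptor chains, *Lifr* and *Il6ra* passed the threshold and *Il6st* did not. *Lifr* was lowest at 8 h and ended as the most abundant transcript of the 9 per length and *Il6ra* peaked at 2 h and ended on 3 to 29 reads per sample at 96 h. Both receptors need the chain that *Il6st* encodes. Values are normalized counts, the reads of a gene divided by the size factor of the sample, and a change is a log2 fold change of (normalized count + 1) fitted by limma with its standard error (SE) and a p adjusted over all genes tested. The threshold was a false discovery rate (FDR) below 0.1 with a change of at least 4-fold. In bulk samples, fewer cells expressing a gene and less RNA per cell cannot be told apart.

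*Lifr* encodes the ligand-binding chain and lies at chr15:7090614-7197489 on the plus strand. Its 4 samples held 968, 1067, 806 and 793 normalized counts at 0 h. At 2 h they held 513, 528, 380 and 464, and at 8 h 492, 564, 291 and 312. All samples at 2 h and 8 h lay below all samples at 0 h, and replicates 3 and 4 were the lower ones. Between them, at 4 h, the samples held 767, 858, 498 and 556 and overlapped 0 h. The log2 difference there was -0.46 (limma adjusted p = 0.0765, and 0.346 with the sets averaged first). The level at 24 h was 676, 728, 961 and 1021, which overlaps 0 h. It was 1660, 1884, 3213 and 3406 at 48 h and 5838, 5585, 6618 and 6029 at 96 h. These last time points overlap neither each other nor any earlier one. Against 0 h *Lifr* rose at 96 h by 2.73 ± 0.21 (SE) on the log2 scale, or 6.62-fold, with limma's adjusted p = 6.73e-13. Replicates 1 and 2 alone gave a change of 2.49, and replicates 3 and 4 alone 2.98. The 48 h value was 1.42 ± 0.21, higher in 4 of 4 samples but short of 4-fold, and it was 0.80 and 2.05 within the sets. Early values were -0.95 at 2 h (limma adjusted p = 0.000577) and -1.18 at 8 h (limma adjusted p = 3.43e-05), both short of 4-fold. With the replicate sets averaged first, limma's adjusted p for these 2 h and 8 h values was 0.0625 and 0.0206.

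*Il6ra* encodes the chain that binds IL-6 and lies at chr3:89864059-89913196 on the minus strand. It shares 242 exon bases with *Gm42809* on the opposite strand, and the strand setting of the counting is not given in the sources used here. Its 0 h samples held 272, 250, 186 and 204 normalized counts. At 2 h they held 610, 558, 749 and 760, all above every sample of every other time point. At 4 h, with 253, 242, 314 and 328, the level overlapped 0 h again. Samples at 8 h held 60.5, 78.6, 69.2 and 77.5, and at 48 h 29.2, 32, 33.4 and 39.2. At 96 h replicates 1 and 2 held 18 and 30.5, and replicates 3 and 4 held 3.77 and 2.84. The last values rest on 3 to 29 reads. The 2 h difference from 0 h was 1.55 ± 0.37 on the log2 scale, or 2.93-fold (limma adjusted p = 0.00123), short of 4-fold. The limma adjusted p was 0.0785 when the sets were averaged first. *Il6ra* fell past the threshold at 16 h (by 2.31, with -2.82 and -1.81 within the sets, the latter short of 4-fold), 24 h (by 2.50), 48 h (by 2.72) and 96 h, where it fell by 4.47 ± 0.37 (limma adjusted p = 4.15e-12). The mean at 96 h was 16.5-fold lower than at 0 h. The 96 h change was -3.42 within replicates 1 and 2 and -5.52 within replicates 3 and 4, so its size depends on the set while its direction does not.

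*Il6st* (chr13:112464070-112510086, plus strand) encodes gp130. It held 939, 1157, 1381 and 1413 normalized counts at 0 h and 1726, 1703, 2100 and 2177 at 16 h, its highest time point. Every 16 h sample lay above every 0 h sample, and neighbours in the order of the time point means all overlapped. At 16 h the log2 difference from 0 h reached 0.67 ± 0.149, or 1.58-fold (limma adjusted p = 0.000463, and 0.0495 with the sets averaged first). At 96 h the samples held 1340, 1411, 1501 and 1397, a difference of 0.23 from 0 h (limma adjusted p = 0.174).

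**Figure D1:**
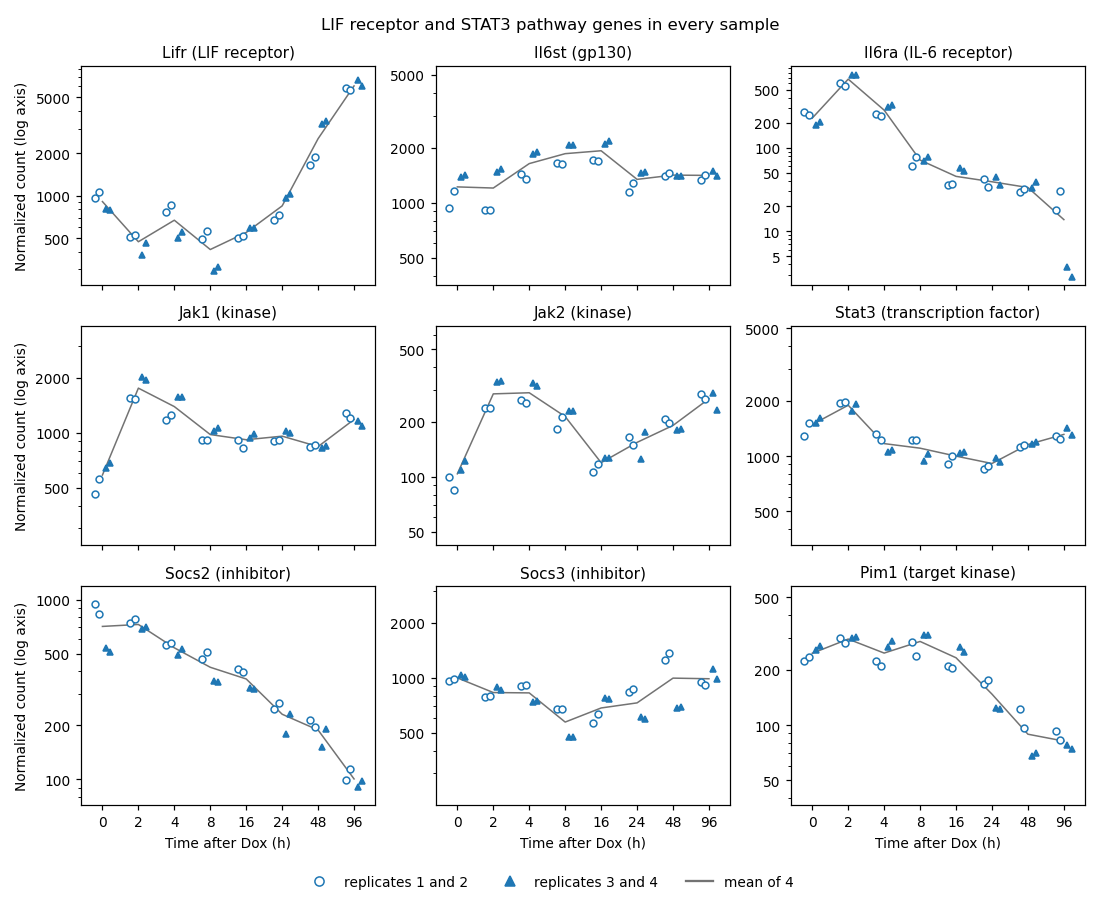
Normalized counts (log axis) of the 9 genes against time after Dox in hours; each point is 1 sample, open circles are replicates 1 and 2, filled triangles replicates 3 and 4, and the line joins the means of 4. *Lifr* reaches 5585 to 6618 at 96 h, *Il6ra* peaks at 558 to 760 at 2 h, and *Socs2* ends at 90.4 to 115.

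Both kinases were higher after induction, with a peak at 2 to 4 h and a second high level at 96 h. *Jak1*, the main kinase of gp130 receptors, lies at chr4:101152367-101265282 on the minus strand. It held 465, 557, 645 and 684 normalized counts at 0 h. It held 1543, 1529, 2006 and 1940 at 2 h and 1284, 1199, 1157 and 1090 at 96 h. The 0 h samples were below all samples of the other 7 time points. The difference from 0 h was 1.58 ± 0.105 on the log2 scale at 2 h, or 2.99-fold (limma adjusted p = 4.41e-13), and ranged from 0.53 at 48 h to 1.24 at 4 h at the other time points. All 7 differences passed the FDR and none reached 4-fold.

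*Jak2*, a kinase shared with growth hormone and interferon gamma receptors, lies at chr19:29251828-29313080 on the plus strand. Its 0 h samples held 99.4, 84.9, 109 and 123 normalized counts. They held 238, 238, 328 and 333 at 2 h and 107, 118, 126 and 127 at 16 h, where they overlap 0 h. At 96 h they held 284, 267, 286 and 232. The log2 differences from 0 h were 1.44 ± 0.129 at 2 h (limma adjusted p = 2.74e-10), 0.21 at 16 h (limma adjusted p = 0.187) and 1.36 at 96 h (limma adjusted p = 7.92e-11). Unlike *Jak1*, whose 16 h samples were all above its 0 h samples, the 16 h samples of *Jak2* overlapped its 0 h samples, and the ratio of *Jak2* to *Jak1* is compared below.

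*Stat3* stayed within 853 to 1964 normalized counts in all 32 samples. The gene (chr11:100885098-100939540, minus strand) shares 72 exon bases with *Stat5a* on the opposite strand. Its samples held 1292, 1518, 1521 and 1615 normalized counts at 0 h. They held 1942, 1964, 1755 and 1921 at 2 h, all above 0 h, and 853, 886, 973 and 930 at 24 h, all below it. The 96 h samples, at 1292, 1243, 1421 and 1296, overlapped 0 h. On the log2 scale the differences from 0 h were 0.35 ± 0.0824 at 2 h (limma adjusted p = 0.000973) and -0.70 at 24 h (limma adjusted p = 1.75e-08). Averaging the sets first gave limma adjusted p-values of 0.0681 at 2 h and 0.000797 at 24 h. No time point passed the 4-fold threshold. These are transcript levels, and phosphorylated STAT3 was not measured.

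The inhibitors differed in course: *Socs2* fell and *Socs3* passed the threshold at no time point. *Socs2* (chr10:95385362-95417180, minus strand), a regulator of growth hormone and other cytokine receptors, held 948, 832, 540 and 514 normalized counts at 0 h. It held 743, 778, 685 and 701 at 2 h, inside the 0 h range. By 24 h the samples were down to 245, 265, 179 and 232. They held 215, 196, 151 and 190 at 48 h. The last time point, 96 h, gave 98.7, 115, 90.4 and 98.3. All samples from 8 h on lay below the 0 h samples, and the 96 h samples lay below all others. *Socs2* fell by 2.76 ± 0.158 on the log2 scale at 96 h (limma adjusted p = 6.81e-16), a 7.05-fold lower mean. The change was -3.05 and -2.47 within the sets. At 48 h it was -1.87, and without replicate 4 it was -2.02 and passed the threshold.

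*Socs3* (chr11:117966079-117970047, minus strand), the feedback inhibitor of gp130, held 959, 984, 1038 and 1014 normalized counts at 0 h. It held 673, 675, 472 and 472 at 8 h, its lowest time point, all below 0 h. At 48 h replicates 1 and 2 held 1248 and 1359 and replicates 3 and 4 held 686 and 690, above and below the 0 h samples. At 96 h, with 943, 911, 1117 and 981, the samples overlapped 0 h. Its log2 difference from 0 h was -0.82 ± 0.173 at 8 h (limma adjusted p = 0.000264), with -0.53 and -1.12 within the sets, and -0.02 at 96 h (limma adjusted p = 0.927). The limma adjusted p at 8 h was 0.0465 with the sets averaged first. The 48 h value of -0.08 was the mean of 0.42 in one set and -0.58 in the other. 

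*Pim1* (chr17:29490753-29496112, plus strand) encodes a serine/threonine kinase that promotes survival and is a known STAT3 target. It shares 488 exon bases with *Gm26885* on the opposite strand. It held 225, 236, 256 and 270 normalized counts at 0 h and 210, 204, 267 and 252 at 16 h, which overlap. It held 167, 176, 124 and 123 at 24 h, and 92.3, 83.1, 77.8 and 73.7 at 96 h. All samples from 24 h on lay below all earlier ones. The log2 difference from 0 h was -0.75 ± 0.15 at 24 h (limma adjusted p = 8.65e-05), with -0.42 within replicates 1 and 2 and -1.08 within replicates 3 and 4. It was -1.58 at 96 h (limma adjusted p = 8.09e-11), a 3.02-fold lower mean, short of 4-fold.

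**Figure D2:**
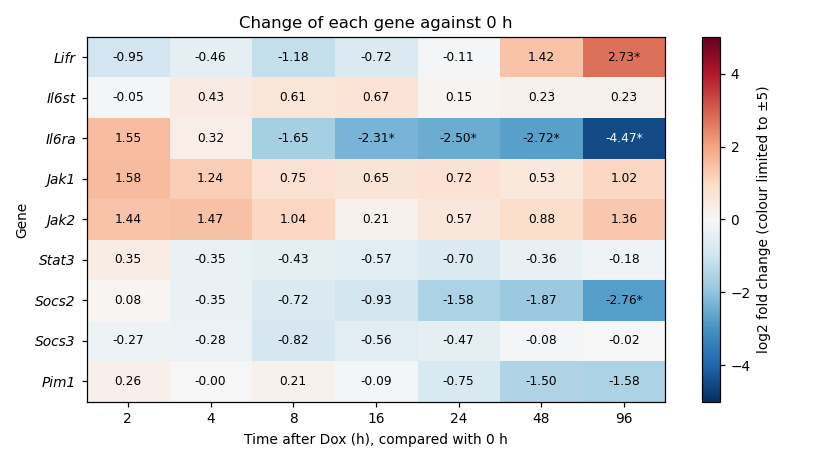
Log2 fold change of each of the 9 genes (vertical) at each time point in hours (horizontal) against 0 h, as limma fitted it on log2(normalized count + 1); red is higher, blue lower, and an asterisk marks an FDR below 0.1 with at least 4-fold. Asterisks fall on *Lifr* at 96 h (2.73), *Il6ra* from 16 h (-2.31) to 96 h (-4.47) and *Socs2* at 96 h (-2.76).

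Counted over the 9 genes, 0 passed the threshold by limma against 0 h at 2, 4 and 8 h, and voom also gave 0. Of all genes tested, 2.00% were higher and 0.348% lower past the threshold at 2 h. The shares were 2.69% and 0.709% at 4 h, then 3.40% and 1.31% at 8 h. At 16 h 1 gene was lower past the threshold (background 2.40% lower, 4.03% higher). The count of lower genes was also 1 at 24 h (4.34% and 4.85%) and 48 h (7.09% and 8.48%), each time *Il6ra*. Without replicate 4 the count at 48 h was 2, with *Socs2*. At 96 h 1 gene was higher (*Lifr*, background 9.28%) and 2 were lower (*Il6ra* and *Socs2*, background 10.3%).

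Differences short of 4-fold were more frequent. At the FDR alone, 2 h gave 4 higher and 1 lower gene, where 22.2% of all genes were higher and 22.6% lower. There were 3 higher and 3 lower at 4 h (background 24.7% and 23.8%), 3 and 5 at 8 h (26.3% and 22.8%), 2 and 5 at 16 h (28.0% and 25.3%), 2 and 5 at 24 h (31.2% and 30.7%), 3 and 4 at 48 h (36.1% and 37.3%), and 3 and 4 at 96 h (38.0% and 38.5%). An unadjusted p under 0.05 gave the same counts. The median log2 change of the 9 genes was 0.26 at 2 h. The value was -0.43, -0.56 and -0.47 for 8, 16 and 24 h in that order, and was -0.08 and -0.02 in the last ones, 48 and 96 h. Over all genes tested it lay between -0.03 and 0.01 at these time points.

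Base medium is the same from 2 h on, but slower responses to leaving 2i remain in comparisons with 2 h and cannot be told apart from those to GATA6. Samples from 16 h on had also been taken off Dox after 12 h, and effects of that cannot be told apart either. The transgene row had a mean of 618 normalized counts at 2 h and 65.7 at 16 h. Against 2 h, *Lifr* rose by 2.37 ± 0.21 on the log2 scale at 48 h (5.39-fold, with 1.76 within replicates 1 and 2, short of 4-fold, and 2.98 within replicates 3 and 4) and by 3.68 ± 0.21 at 96 h (12.8-fold, limma adjusted p = 6.12e-16). *Il6ra* fell past the threshold at all 5 later time points compared, from -3.20 at 8 h to -6.02 at 96 h, where the mean was 48.5-fold lower on 3 to 29 reads. *Socs2* fell by 2.84 ± 0.158 at 96 h. It stood at -1.95 at 48 h and made the count of lower genes there 2 instead of 1 without replicate 1. That gave 0 higher and 1 lower of the 9 at 8 h (background 2.07% and 1.25%), 16 h (3.38% and 2.74%) and 24 h (4.62% and 5.21%), 1 and 1 at 48 h (8.50% and 7.65%), and 1 and 2 at 96 h (9.0% and 10.6%). At the FDR alone there were 1 higher and 6 lower at 8 h (background 22.2% and 19.1%), 16 h (27.6% and 26.1%) and 24 h (31.4% and 31.9%), 2 and 6 at 48 h (36.9% and 38.3%), and 1 and 5 at 96 h (37.6% and 39.4%). These comparisons share the 2 h samples with each other. *Jak1*, at -0.56, and *Stat3*, at -0.53, were still lower at 96 h than at 2 h (limma adjusted p = 2.29e-05 and 1.24e-06) without reaching 4-fold.

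Between neighbouring time points 0 of the 9 genes passed the threshold by limma in any of the 6 steps. Of all genes tested, 0.558% were higher and 0.230% lower past it from 2 to 4 h, 0.565% and 0.250% from 4 to 8 h, 0.499% and 0.539% from 8 to 16 h, 0.525% and 0.729% from 16 to 24 h, 2.51% and 1.41% from 24 to 48 h, and 1.30% and 2.40% from 48 to 96 h. At the FDR alone the 9 genes gave 1 higher and 4 lower from 2 to 4 h (background 13.6% and 10.9%), 0 and 5 from 4 to 8 h (9.51% and 7.57%), 0 and 1 from 8 to 16 h (9.44% and 10.6%), 2 and 3 from 16 to 24 h (13.3% and 14.8%), 4 and 1 from 24 to 48 h (29.8% and 27.8%), and 4 and 2 from 48 to 96 h (27.3% and 27.2%). At an unadjusted p under 0.05 the counts were 2 and 4, 0 and 6, 1 and 1, 2 and 3, 4 and 1, and 4 and 2 in the same order. With the replicate sets averaged first, only *Stat3* passed the FDR from 2 to 4 h (limma adjusted p = 0.0110). None of the 9 passed from 4 to 8 h or from 16 to 24 h (lowest limma adjusted p = 0.120 and 0.128). From 8 to 16 h *Jak2* passed (limma adjusted p = 0.0320). *Lifr*, *Pim1* and *Stat3* passed from 24 to 48 h, and *Lifr*, *Socs2*, *Il6ra*, *Jak1* and *Jak2* from 48 to 96 h. The largest step was *Il6ra* from 4 to 8 h, -1.97 ± 0.37, and by voom 1 gene was lower past the threshold at that step and 0 at the others. The count there was also 1 without replicate 2, and from 48 to 96 h it was 1 without replicate 1 or without replicate 2. For *Lifr* the step was 1.54 ± 0.21 from 24 to 48 h (limma adjusted p = 4.61e-07) and 1.31 from 48 to 96 h (limma adjusted p = 6.39e-06), so its late increase was spread over both. For *Stat3* it was -0.70 ± 0.0824 from 2 to 4 h (limma adjusted p = 2.8e-07).

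Levels can be compared between genes per kb of merged exon sequence. At 0 h *Socs3* was first of the 9 with 346 normalized counts per kb, followed by *Stat3* with 156, *Il6st* with 110 and *Lifr* with 84.3. *Jak2*, with 20.7, was last. At 2 h *Jak1* had moved to second place with 243 per kb, and *Lifr*, with 43.7, was last. *Lifr* was second at 48 h with 236 and first at 96 h with 558 per kb, ahead of *Socs3* with 342. *Il6ra* was last from 4 h on, at 32.9 per kb at 4 h and 1.6 per kb at 96 h. At 96 h *Il6st* stood at 127 per kb, below *Lifr* per length, whereas at 0 h its mean was above that of *Lifr* with overlapping samples (84.6 to 127 and 73.6 to 99.0 per kb). Exon lengths are those of the gene model with all exons merged, and the transcripts in use can be shorter.

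**Figure D3:**
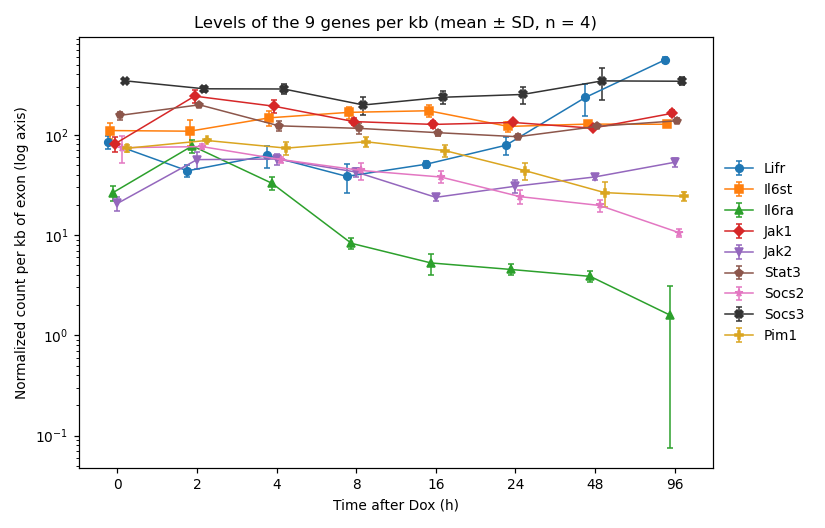
Normalized count per kb of exon (log axis, mean ± SD, n = 4) of the 9 genes against time after Dox in hours. *Lifr* goes from 43.7 at 2 h, the lowest of the 9, to 558 at 96 h, the highest, while *Il6ra* goes from 77.4 to 1.6.

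Log2 ratios between transcripts were formed within each sample, as log2 of (normalized count + 1) of one gene minus that of the other. The *Il6ra* to *Lifr* ratio was -1.83, -2.09, -2.11 and -1.95 at 0 h. It was 0.25, 0.08, 0.98 and 0.71 at 2 h, the one time point at which all samples held more *Il6ra* than *Lifr* counts. At 96 h it was -8.26, -7.47, -10.44 and -10.62. Its mean moved by 2.50 at 2 h and by -7.20 at 96 h against 0 h, with a two-sided exact permutation p = 0.0286 each, the smallest that 4 samples against 4 can give, and 0.06 after adjustment over the 21 ratio tests. None of the 21 tests is below 0.05 after that adjustment. The *Socs3* to *Stat3* ratio was -0.57 at 0 h and -1.19 at 2 h, a change of -0.62 with all samples apart (exact permutation p = 0.0286, adjusted 0.06), and at 4 h, -0.50, it overlapped 0 h. At 8 h the ratio was -0.96, a change of -0.39 with all samples apart again (exact permutation p = 0.0286, adjusted 0.06). Its 48 h change of 0.28 (exact permutation p = 0.429) was 0.73 in replicates 1 and 2 and -0.16 in replicates 3 and 4. The *Jak2* to *Jak1* ratio moved by -0.44 at 16 h and by 0.35 at 48 h (exact permutation p = 0.0286, adjusted 0.06, each), and by -0.15 at 2 h (exact permutation p = 0.286), when both kinases were higher.

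**Figure D4:**
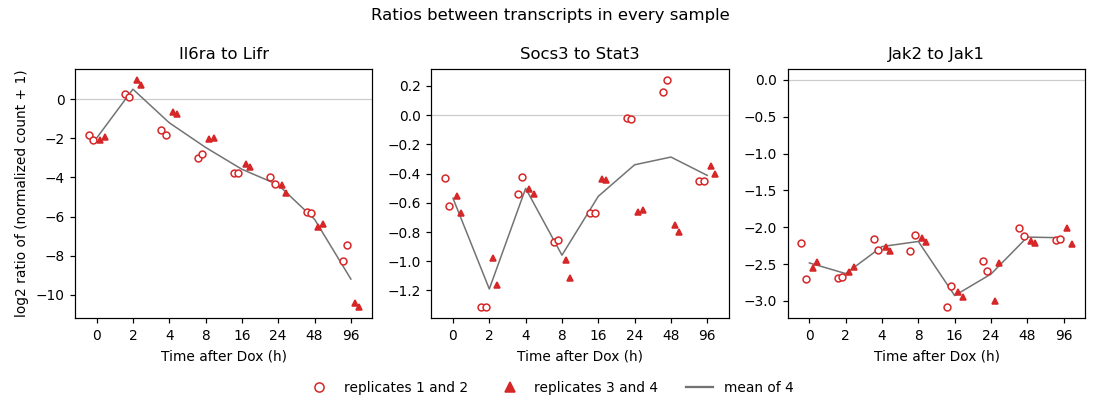
Log2 ratios of (normalized count + 1) between *Il6ra* and *Lifr*, *Socs3* and *Stat3*, and *Jak2* and *Jak1* against time after Dox in hours; each point is 1 sample and the line joins the means of 4. The *Il6ra* to *Lifr* ratio runs from a mean of 0.50 at 2 h to -9.20 at 96 h, and the *Socs3* to *Stat3* ratio splits by replicate set at 24 and 48 h.

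The other genes of the pathway were taken from a list of 43, of which 39 passed the filter on low values. The 4 that did not were all ligands, out of 8 on the list. Against 0 h, 6 of the 39 genes were higher past the threshold at 1 or more time points and 7 were lower, where 13.6% of all genes tested were higher and 12.1% lower at 1 or more. At 2 h 3 of the 39 were higher and 2 lower (background 2.00% and 0.348%). Higher and lower counts were 1 and 1 at 4 h (background 2.69% and 0.709%), 2 and 2 at 8 h (3.40% and 1.31%), and 2 and 3 at 16 h (4.03% and 2.40%). They were 1 and 6 at 24 h (4.85% and 4.34%), 3 and 3 at 48 h (8.48% and 7.09%), and 3 and 5 at 96 h (9.28% and 10.3%). The median log2 change over the 39 was -0.12 at 2 h, -0.22 at 24 h and 0.03 at 96 h.

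Among the ligands, *Lif* itself fell by 2.18 ± 0.249 on the log2 scale at 24 h (limma adjusted p = 1.12e-08), from 77.2 ± 13.7 (SD, n = 4) normalized counts at 0 h to 17.9 ± 8.05. The change was -1.77 within replicates 1 and 2, short of 4-fold, and -2.59 within replicates 3 and 4. The 24 h value rests on 3 to 34 reads per sample. At 96 h *Lif* stood at 221 ± 32.1, above all 0 h samples but short of 4-fold. *Osm*, which encodes oncostatin M, another gp130 cytokine, went from 155 ± 12.7 at 0 h to 28.1 ± 1.95 at 2 h. No read of *Osm* was left at 96 h in any of the 4 samples. With 3 reads in the shallowest 96 h library as the limit, its level there was at least 41.1-fold lower than at 0 h. Of the 3 other receptors, *Osmr*, which pairs with gp130 for oncostatin M, rose by 3.38 ± 0.463 at 96 h, from 5.83 ± 3.33 to 64.5 ± 13.8 normalized counts. The change was 2.54 within replicates 1 and 2 and 4.22 within replicates 3 and 4. Its 0 h value rests on 2 to 11 reads per sample, so its size is uncertain. *Il11ra1*, the IL-11 receptor chain, rose by 2.94 ± 0.302 at 96 h, from 8.25 ± 3.86 to 66.1 ± 11.4. Its close copy *Il11ra2* can share reads with it, so this value is uncertain. *Cntfr* passed the threshold downwards at 24 h (-2.31), which rests on replicates 1 and 2. They went from 54.8 at 0 h to 1.83 at 24 h (-4.33), and replicates 3 and 4 from 5.65 to 4.48 (-0.29).

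Of the other kinases, *Jak3*, which serves the receptors of the common gamma chain, fell by 2.88 ± 0.146 at 24 h, from 601 ± 106 to 80.3 ± 9.03 normalized counts, while *Tyk2* did not pass. Of the 6 other STAT genes, 1 passed: *Stat4* fell by 2.27 ± 0.273 at 96 h, from 21.1 ± 3.66 to 3.79 ± 1.86. The change was -1.89 within replicates 1 and 2, short of 4-fold, and -2.66 within replicates 3 and 4. The 96 h value rests on 2 to 6 reads per sample, so the size depends on the pseudocount.

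Of 14 other inhibitors, 3 rose and 0 fell past the threshold at 1 or more time points against 0 h by limma (background 13.6% and 12.1%), and voom gave 0 lower as well. At an unadjusted p under 0.05, 1 to 4 of the 14 were lower, depending on the time point. The 3 that rose did so at different times. *Socs5* held 101 ± 21.4 normalized counts at 0 h, 926 ± 106 at 2 h and 184 ± 9.94 at 8 h, a rise of 3.20 ± 0.166 at 2 h (limma adjusted p = 1.07e-15). *Cish*, an inhibitor known as a STAT5 target, was past the threshold from 2 to 16 h and highest at 4 h, with 159 ± 25.0 against 13.2 ± 0.782 at 0 h. *Socs1*, which binds JAK kinases directly, held 14.8 ± 1.84 at 0 h and 5.44 ± 1.45 at 8 h. It was 110 ± 16.9 at 24 h, 226 ± 14.1 at 48 h and 109 ± 29.8 at 96 h, a rise of 3.84 ± 0.266 at 48 h (limma adjusted p = 9.58e-14).

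Of 10 other targets, *Gbx2*, a homeobox gene downstream of STAT3 in mES cells, fell at all 7 time points, from 264 ± 81.7 normalized counts at 0 h to 46.3 ± 14.1 at 2 h and 12.8 ± 1.79 at 48 h. *Tfcp2l1*, a transcription factor through which LIF supports self-renewal, was past the threshold from 24 h on. It held 10632 ± 3157 at 0 h and 5631 ± 817 at 2 h, short of 4-fold, and went on to 2166 ± 133 at 24 h and 316 ± 32.9 at 96 h, a change of -5.02 ± 0.181 (limma adjusted p = 8.99e-21). *Myc*, a growth regulator, was past the threshold at 2, 8 and 16 h and rose by 2.82 ± 0.318 at 16 h, where it held 734 ± 15.2. At 0 h it held 193 in replicates 1 and 2 and 55.5 in replicates 3 and 4. Its 8 h call (2.06) was not made by voom. Within replicates 1 and 2 the changes were 1.79, 1.34 and 1.93, all short of 4-fold, and within replicates 3 and 4 they were 2.68, 2.77 and 3.71. The other 7 targets did not pass the threshold against 0 h at any time point.

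**Figure D5:**
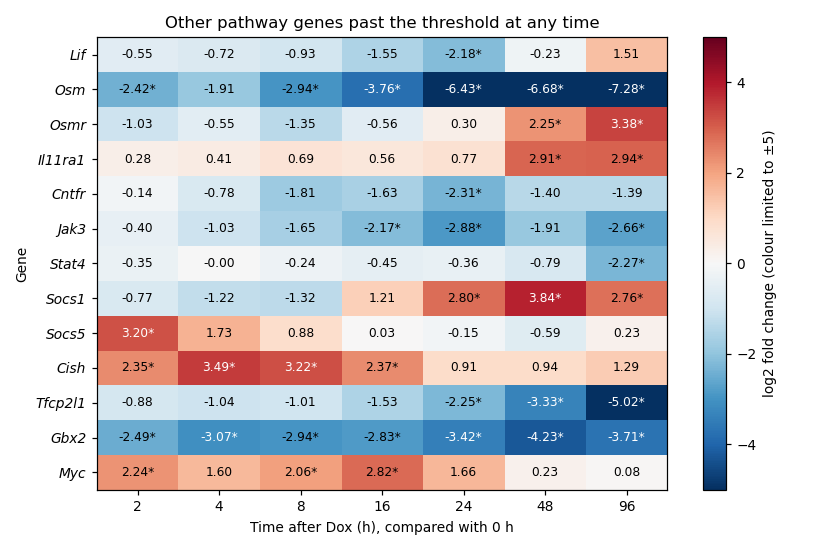
Log2 fold change against 0 h, fitted by limma on log2(normalized count + 1), of the 13 listed pathway genes past the threshold at 1 or more time points (vertical) at each time point in hours (horizontal); red is higher, blue lower, and asterisks mark an FDR below 0.1 with at least 4-fold. *Socs5* stands out at 2 h (3.20), *Cish* at 4 h (3.49) and *Socs1* at 48 h (3.84), and the *Osm* values from 24 h on rest on 0 to 4 reads per sample, so their size depends on the pseudocount.

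For each gene the transcripts with the most similar course were sought among 8236 genes, as the Pearson correlation of the 8 time point means of log2(normalized count + 1). The points share libraries and the overall drift from pluripotency to endoderm, and the correlations are descriptions. *Osmr* (0.993) and *Slc35e3* (0.994) were the most like *Lifr*. *Etaa1* (0.984) and *Lipe* (0.982) were nearest to *Il6ra*, and *Ap4m1* (0.998) and *C77080* (0.996) to *Socs2*. *Cth* (0.994) and *Rpa2* (0.993) followed *Pim1*, and *Bach1* (0.978) and *Rps6ka3* (0.971) followed *Jak1*. For *Jak2* they were *Itprid2* (0.975) and *Shox2* (0.970), and for *Il6st* *Ppp3ca* (0.942) and *Ccdc194* (0.933). The lowest values were those of *Stat3*, with *Baiap2* (0.942) and *Pqlc1* (0.920), and of *Socs3*, with *Rap1gap2* (0.915) and *Notch3* (0.913). Taken back from the log2 means, *Shox2* ran from 0.72 to 14.9 normalized counts, *Ccdc194* from 1.02 to 41.5 and *Osmr* from 1.43 to 63.4. Such low levels can make their correlations depend on the pseudocount.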

How the data were processed

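RNA-seq of 32 mES cell samples was used, 4 at each of 8 time points, grouped by the sample titles. The authors prepared stranded polyA libraries with 50-base single reads, trimmed them with cutadapt 2.7, aligned them with HISAT2 2.1.0 to GRCm38 and counted them per gene with featureCounts (Subread 1.6.4). Tool versions are those of the submitters' processing notes. What the authors deposited is a single table of log2 values, 54233 rows by 32 samples, that DESeq2 had variance-stabilized. The lowest deposited log2 value, 1.58, stands for no reads and fixes the transformation, which was inverted to normalized counts; whole reads came back for 100% of the values (largest distance 3.5e-09). The 9 genes and the pathway and marker lists were chosen with earlier results of these data known. The named genes are those 9, the listed pathway genes past the threshold against 0 h at any time point, and for each of the 9 the nearest pair of genes by correlation.

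The 15227 genes that reached a normalized count of 10 in 4 or more samples were fitted by limma 3.58.1 (R 4.3.3) on the log2(normalized count + 1) scale, with lmFit, contrasts and eBayes with trend over all 32 samples. P-values were Benjamini-Hochberg adjusted over all genes tested, and calls needed FDR < 0.1 and a log2 change of 2 or more either way. The procedure was tested on simulated data drawn independently for each sample. No replicate sets were simulated, so that test does not cover their effect on the p-values. Two-sided exact permutation tests of the ratios used scipy 1.17.1 under Python 3.11.15, with pandas 2.3.3 and numpy 2.4.6, and plots were drawn with matplotlib 3.10.9. Alternatives were another pseudocount, filter, scaling, FDR and fold minimum, a replicate block, the replicate sets as a block or averaged, each replicate left out, the deposited values as they stand, and limma-voom on the whole reads. Of the rows, 29140 had no symbol and 29046 were named from a table of identifiers. Coordinates and exon lengths are from GENCODE M21 on GRCm38, a later release than the one counted on. Promoter sequences are from RefSeq (GRCm38.p6), with no entry used for *Socs2*. PCR duplicates were not marked, so read numbers speak to counting error alone.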

Additional observations from a re-analysis of the deposited data

Results flagged for a closer look

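Of 72 groups of 4 samples (9 genes at 8 time points), 2 had a sample far from the other samples of its group by Dixon's criterion for 4 samples, the gap to the nearest sample over the group's range. Chance gives about 1 in 20 such groups. *Il6st* at 48 h held 1458 normalized counts in replicate 2, where the gap was 0.935 of the range, in a group whose samples ran from 1403 to 1458. *Pim1* at 2 h held 280 in replicate 2, with a gap of 0.893 of the range, in a group from 280 to 301. In both groups the samples lay close together, with SDs of 27.1 and 10.1.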

How the results depend on the processing

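The counts of the 9 genes past the threshold, 36 over 18 comparisons and both directions, were the same with pseudocounts of 0.5 and 5, no filter or a mean of at least 50, upper-quartile scaling, FDR < 0.05, the deposited values, the compared samples alone, the sets as a block and the sets averaged. With no fold minimum 33 of the 36 moved. Higher and lower genes against 0 h were then 4 and 1 (2 h), 3 and 3 (4 h), 3 and 5 (8 h), 2 and 5 (16 h, 24 h), and 3 and 4 (48 h, 96 h). From the preceding time point they were 1 and 4 (4 h), 0 and 5 (8 h), 0 and 1 (16 h), 2 and 3 (24 h), 4 and 1 (48 h), and 4 and 2 (96 h). From 2 h they were 1 and 6 (8, 16 and 24 h), 2 and 6 (48 h), and 1 and 5 (96 h). Under limma-voom 1 gene was lower from 4 to 8 h, where limma gave 0. Leaving out each replicate gave 1 to 2 lower genes at 48 h against 0 h and against 2 h, and 0 to 1 from 4 to 8 h and from 48 to 96 h. The cause was not tested.

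Same-numbered replicates did not pair beyond their set (mean correlation of deviations 0.196, lowest -0.0428, and 0.196 with the other number of the set). With the replicate block all 36 counts were the same, and of 63 changes against 0 h 61 kept their side of the FDR and 2 crossed it, *Il6st* at 48 h (0.23, adjusted p = 0.0256 by limma) and at 96 h (0.23, 0.0282). With the sets averaged their adjusted p was 0.416 and 0.417 by limma.

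Changes near 0 turned sign. *Pim1* at 4 h was 0.042 by voom. Leaving out each replicate gave -0.036 to 0.048 for *Pim1* at 4 h, -0.098 to 0.052 for *Il6st* at 2 h, -0.27 to 0.033 for *Lifr* at 24 h, -0.26 to 0.097 for *Socs3* at 48 h and -0.061 to 0.011 at 96 h, and for *Socs2* at 2 h -0.036 to 0.23. Within replicates 1 and 2 and within 3 and 4, the *Il6ra* to *Lifr* change at 16 h was -1.82 and -1.37, and that of *Socs3* to *Stat3* was -0.78 and -0.46 at 2 h and -0.14 and 0.17 at 16 h. With a pseudocount of 5 the *Jak2* to *Jak1* change at 48 h was 0.33 (exact permutation p = 0.0571). With the sets averaged, 7 of the 63 changes no longer passed the FDR. Upper-quartile scaling shifted the median of all genes by -0.20 at 96 h against 0 h (*Lifr* 2.54, *Stat3* -0.37) and turned no direction among the 63. Depth limits *Il6ra* at 96 h, on 3 to 29 reads.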
